A study of Mus musculus with 33 samples.

Results

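Purine signalling genes were followed through the cell classes of the mouse hippocampal neurogenic niche: the receptors P2ry12, P2ry13, P2ry6, Gpr34, P2rx4, P2rx7 and Adora1, and the ectonucleotidases Entpd1 and Entpd2. These 9 genes were taken by symbol from 18848 gene symbols in the count files, and all 9 were listed in every experiment. Neurons had been depleted from the hippocampus, and live cells without surface GluR1 (a subunit of neuronal glutamate receptors) and Cd24 (a surface protein of neuroblasts among others) were sorted singly into plates. They were read by SORT-seq, which counts the 3' ends of transcripts by unique molecular identifiers (UMIs). The samples were 1 library of wild-type C57BL/6 mice older than 12 months, 1 library of GFP-positive hippocampal cells from Nestin-GFP mice, a reporter strain for the progenitor gene Nestin, and 31 niche libraries of wild-type C57BL/6 mice from 5 experiments. The labels give no age for the niche and Nestin-GFP mice and no number of mice per experiment. That the niche mice were younger than the old ones is therefore an assumption, and the spread between experiments may be technical. The experiment was taken as the replicate, as the labels group the libraries by it.

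Cells release ATP and UDP when they are damaged or active, and a chain of surface proteins reads and removes these nucleotides. The P2X receptors P2rx4 and P2rx7 are cation channels opened by ATP, P2ry12 and P2ry13 are receptors for ADP, and P2ry6 is a receptor for UDP. Gpr34 is a relative of the ADP receptors that responds to lysophosphatidylserine. Entpd1 cuts ATP and ADP down to AMP, Entpd2 mainly turns ATP into ADP, and Adora1 is an inhibitory receptor for adenosine, the end product of the chain. In the brain, P2ry12 is known for guiding microglial processes to damage, P2ry6 for phagocytosis, and Entpd2 as an enzyme of stem cells and astrocytes.

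The genes lie on 7 chromosomes in GRCm38. P2ry13 (chr3:59207892-59210882, minus strand) and P2ry12 (chr3:59216272-59262871, minus strand) are neighbours with 5389 bases between them, and both lie whole inside Med12l on the opposite strand. P2rx7 (chr5:122643911-122691432) and P2rx4 (chr5:122707544-122729738) are neighbours on the plus strand with 16111 bases between them. P2ry6 lies at chr7:100937630-100974649 on the minus strand and Adora1 at chr1:134199223-134235431 on the minus strand. The end of Adora1 overlaps Mybph on the opposite strand. Gpr34 lies at chrX:13632089-13640858 on the plus strand, whole inside Cask on the opposite strand. Entpd1 lies at chr19:40612366-40741602 and Entpd2 at chr2:25395874-25401321, both on the plus strand, and the end of Entpd2 overlaps Npdc1 on the same strand. No source used here says whether the counting used strand, so reads of overlapping genes may be shared.

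The promoters of the neighbours P2ry12 and P2ry13 and of Entpd2 are shown because these genes define the contrast between microglia-like cells and the stem and astrocyte classes below. Each run holds 250 bases before and 50 bases after a RefSeq transcript start in GRCm38.p6, at chr3:59262936-59263235 (minus strand), chr3:59210833-59211132 (minus strand) and chr2:25395624-25395923 (plus strand). Capitals mark the letters GAGGAA, the core of sites of PU.1, a transcription factor of macrophages and microglia.
P2ry12: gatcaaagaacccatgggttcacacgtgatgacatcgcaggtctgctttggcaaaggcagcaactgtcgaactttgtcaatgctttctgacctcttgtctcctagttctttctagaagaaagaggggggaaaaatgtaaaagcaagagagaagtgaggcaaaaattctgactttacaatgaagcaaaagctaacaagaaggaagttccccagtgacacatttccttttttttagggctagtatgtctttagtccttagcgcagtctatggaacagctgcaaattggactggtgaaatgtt
P2ry13: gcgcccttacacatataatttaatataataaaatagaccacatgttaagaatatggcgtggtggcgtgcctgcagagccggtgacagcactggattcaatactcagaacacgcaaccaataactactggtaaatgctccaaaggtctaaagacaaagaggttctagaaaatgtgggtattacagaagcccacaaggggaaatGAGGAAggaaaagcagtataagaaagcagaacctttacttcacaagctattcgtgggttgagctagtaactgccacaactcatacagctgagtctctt
Entpd2: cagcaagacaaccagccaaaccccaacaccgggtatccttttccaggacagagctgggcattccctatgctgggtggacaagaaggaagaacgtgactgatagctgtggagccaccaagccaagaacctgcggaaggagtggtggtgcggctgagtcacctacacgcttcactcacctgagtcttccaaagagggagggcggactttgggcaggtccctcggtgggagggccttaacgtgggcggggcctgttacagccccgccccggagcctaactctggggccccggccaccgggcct
The letters were searched on both strands (GAGGAA or TTCCTC) and stand in 28.3% of the 32851 promoters of the table. They stand in 4 of the 10 promoters listed for 7 of the 9 genes. P2ry13 has them at -48 from its start, P2rx7 at +11 and, at a second start, at +6, and the second start of Entpd1 has them at -235 and -227. No match was found in the windows of P2ry12, P2rx4, Entpd2 and Adora1. Gpr34 and P2ry6 were not matched in the table.

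The niche experiments gave 1285 wells with at least 1000 transcripts, 141 to 435 per experiment with a median of 1943 to 12392 transcripts per cell. The old library gave 138 such wells and the Nestin-GFP library 315. Cells were grouped without use of the 9 genes or of other purine pathway genes, and the groups were named from marker genes, so classes are called "-like". The 15 microglia markers, none of them among the 9 genes, summed to 47720 ± 6912 CPM (counts-per-million; SD, n = 5 experiments) in microglia-like cells, against 584 ± 339 CPM in astrocyte-like cells (n = 5), and all 15 were detected in the microglia-like cells of every experiment. Most microglia-like cells of experiment 1, of experiment 2 with the old library, and of experiments 3 and 5 fell into separate clusters, so experiment and cluster cannot be told apart for most of them. Of the 16 astrocyte-like cells of experiment 4, 14 formed a cluster of that experiment alone, led by Timp1, C4b and Gfap, and the other 2 lay in a cluster shared with the other experiments. Counts were summed over the cells of a class in 1 experiment, and UMIs count molecules by their 3' ends, so CPM does not scale with transcript length and was compared between genes as it stands.

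Microglia-like cells held most of the receptor transcripts. P2ry12 had 6758, 4588, 3522, 2412 and 3933 CPM in the microglia-like cells of experiments 1 to 5, a mean of 4243 ± 1613 CPM (SD, n = 5). Gpr34 followed with 2675, 2227, 1316, 1458 and 2217 CPM, a mean of 1979 ± 573 CPM. P2ry13 had 2256, 2076, 1266, 698 and 1660 CPM, a mean of 1591 ± 630 CPM. Experiment 1 was highest for all of these receptors, and experiment 4, with 9 microglia-like cells, was lowest for P2ry12 and P2ry13. In no other named class did an experiment exceed 222 CPM of P2ry12, 147 CPM of P2ry13 or 103 CPM of Gpr34, so the ranges of microglia-like cells did not overlap those of other classes. Gpr34 was above P2ry13 in all 5 experiments, by the values given, and this difference was not tested.

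**Figure D1:**
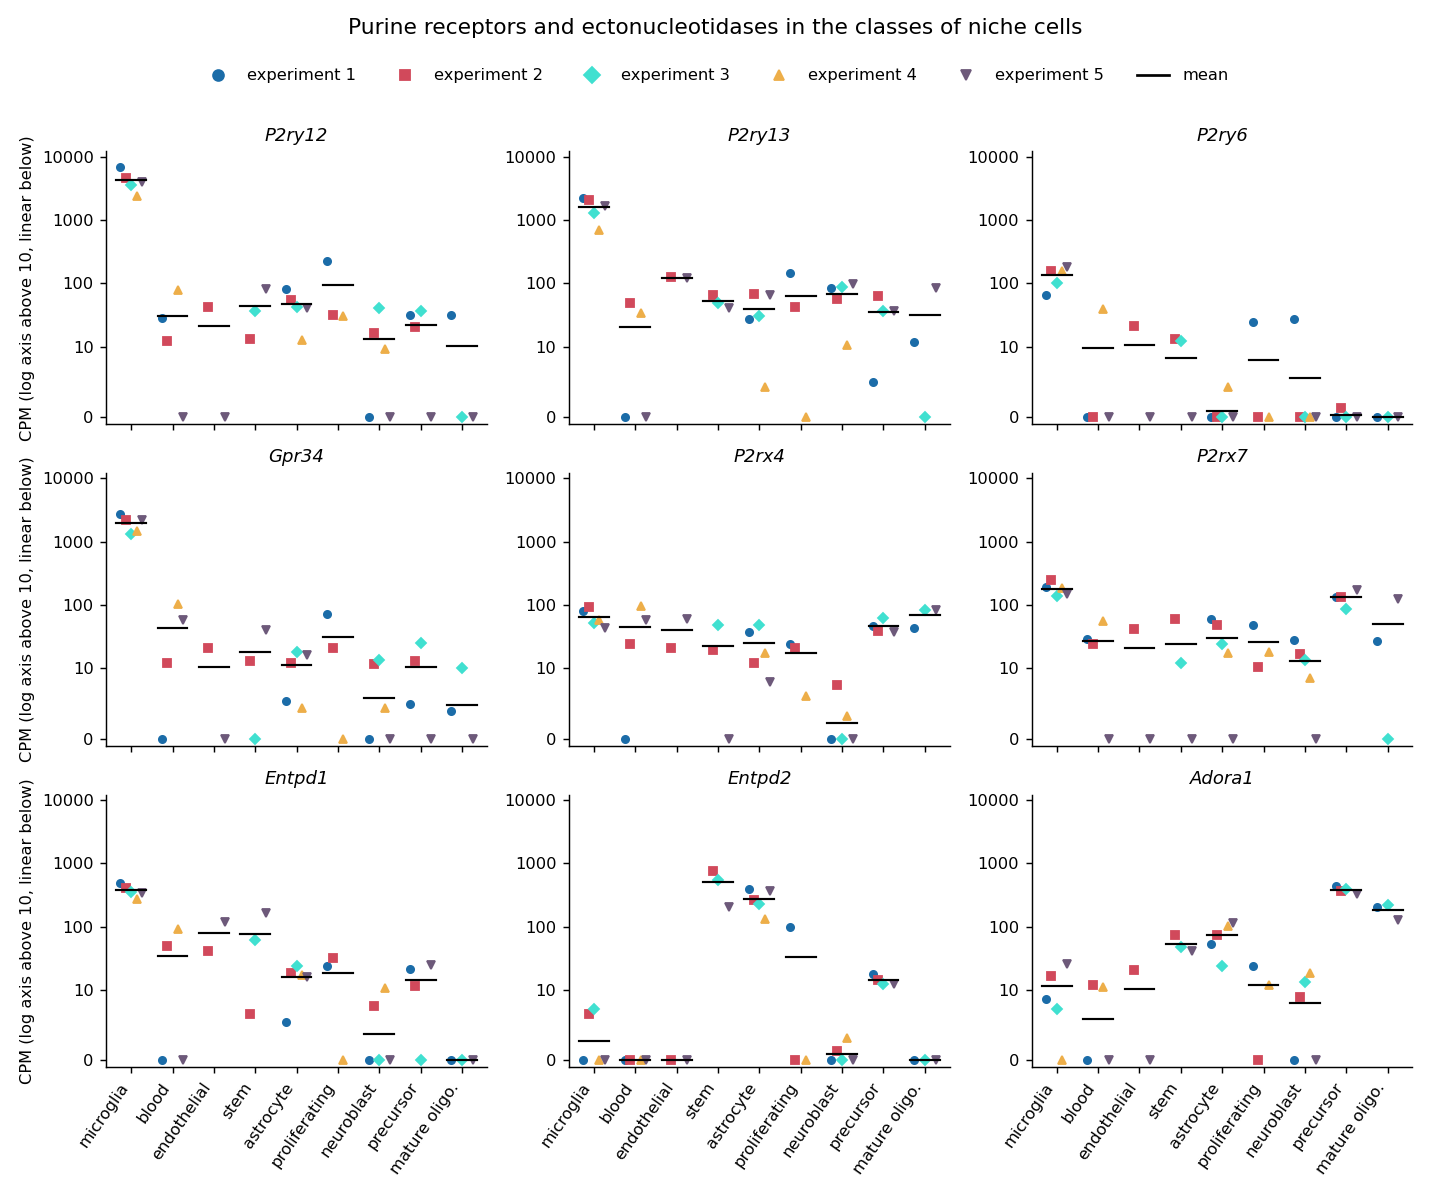
CPM of each gene (vertical axis, log above 10 CPM and linear below) in 9 cell classes of the niche (horizontal axis), with 1 point per experiment that held at least 5 cells of the class and a black line at the mean. P2ry12, P2ry13, P2ry6, Gpr34 and Entpd1 stand highest in microglia-like cells, Entpd2 in stem cell-like and astrocyte-like cells and Adora1 in oligodendrocyte precursor-like cells, whereas the points of P2rx4 and P2rx7 overlap between classes.

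These transcripts were present in nearly every microglia-like cell. Of 289 microglia-like niche cells, 99.0% held a UMI of P2ry12, 94.5% of Gpr34 and 93.4% of P2ry13, against 12.2%, 3.80% and 11% of 237 astrocyte-like cells. The median depth was 3097 transcripts in microglia-like and 2159 in astrocyte-like cells. After each cell was thinned to 1000 UMIs, the shares were 95.5%, 84.1% and 77.2% in microglia-like cells, against 5.98%, 1.28% and 4.70% in astrocyte-like cells. All 3 transcripts were seen together in 126 of 133, 48 of 51, 29 of 36, 7 of 9 and 45 of 60 microglia-like cells of experiments 1 to 5, and each of these cells held at least 1 of them. Single cells spread widely: in experiment 1 the middle range of P2ry12, from the first to the third quartile, was 4751 to 8626 CPM around a median of 6830 CPM, with a highest cell at 16120 CPM. In experiment 5, the shallowest, the same range was 2290 to 4674 CPM around 3570 CPM. The median depth of these cells was 1715 transcripts, so each held few P2ry12 UMIs. Counting error is included in these ranges, and its part was not tested.

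P2ry6, the UDP receptor, was much rarer than P2ry12 in the same cells. It had 65.3, 158, 102, 157 and 182 CPM in the microglia-like cells of experiments 1 to 5, a mean of 133 ± 47.8 CPM (SD, n = 5). Experiment 1, which was highest for P2ry12, was lowest for P2ry6. It was seen in 28.7% of microglia-like cells and, after thinning, in 10.4%. It was seen in 1 of 237 astrocyte-like cells, and in 66 mature oligodendrocyte-like cells not at all.

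The ATP-gated channels were not restricted to microglia-like cells. P2rx7, the channel known for the release of interleukin-1 by microglia, had 190, 244, 139, 187 and 148 CPM in the microglia-like cells of experiments 1 to 5, a mean of 182 ± 41.6 CPM. In oligodendrocyte precursor-like cells it had 133, 132, 86.8 and 173 CPM in experiments 1, 2, 3 and 5, a mean of 131 ± 35.2 CPM (SD, n = 4), and the ranges of both classes overlapped. In the other classes with at least 2 experiments its mean was 13.2 to 50.8 CPM. The precursor-like cells of the Nestin-GFP library, which held no microglia-like cell, had 156 CPM of P2rx7 (95% exact Poisson interval 122 to 196, counting error only), inside the range of the niche experiments. In that library P2rx7 was seen in 62.7% of precursor-like and 31.2% of mature oligodendrocyte-like cells, and after thinning in 10.4% and 9.68%. P2rx7 was seen in 40.1% of microglia-like and 48.3% of precursor-like niche cells, against 8.02% of astrocyte-like cells, and after thinning in 15.6%, 10.4% and 2.56%. The order of both leading classes thus turned with thinning; their median depth was 3097 transcripts in microglia-like and 5446 in precursor-like cells. The 15 microglia markers summed to 547 ± 290 CPM in precursor-like cells, near the 584 CPM of astrocyte-like cells, where P2rx7 averaged 29.9 ± 24.1 CPM. The part of microglial transcripts in the P2rx7 values of precursor-like cells was not tested.

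P2rx4 was low in every class. Its mean was 69.8 ± 23.3 CPM in mature oligodendrocyte-like cells (SD, n = 3), 64.9 ± 20.7 CPM in microglia-like cells (n = 5) and 46.1 ± 11.4 CPM in precursor-like cells (n = 4), and these ranges overlapped. Among classes with at least 2 experiments, the lowest was neuroblast and immature neuron-like cells with 2.18 ± 3.37 CPM (n = 5). In the Nestin-GFP library its level was 46.9 CPM in precursor-like, 33.3 CPM in mature oligodendrocyte-like and 27.9 CPM in astrocyte-like cells, from 22, 23 and 13 UMIs.

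The ectonucleotidases divided between lineages. Entpd1 had 483, 411, 351, 273 and 339 CPM in the microglia-like cells of experiments 1 to 5, a mean of 371 ± 79.3 CPM (SD, n = 5). Its next classes were endothelial-like cells with 80.4 ± 54.7 CPM (n = 2) and stem cell-like cells with 76.5 ± 78.9 CPM (n = 3, from 10 UMIs, 4 of them in 1 cell of experiment 5). In the Nestin-GFP library Entpd1 had 272 CPM in 14 endothelial-like cells (95% exact Poisson interval 124 to 516, from 9 UMIs), while P2ry12 had 1 UMI there and P2ry13 and Gpr34 none. No UMI of Entpd1 was found in 66 mature oligodendrocyte-like niche cells, which allows a share of up to 4.55% of such cells with a UMI.

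Entpd2 had its highest mean levels in the stem cell-like and astrocyte-like classes. It had 760, 549 and 203 CPM in the stem cell-like cells of experiments 2, 3 and 5, a mean of 504 ± 281 CPM (SD, n = 3). In astrocyte-like cells it had 385, 263, 229, 134 and 364 CPM in experiments 1 to 5, a mean of 275 ± 103 CPM (n = 5). The astrocyte-like cells of the Nestin-GFP library had 272 CPM (227 to 324), inside the range of the niche experiments. The 8 astrocyte-like cells of the old library held no UMI of it, which allows up to 188 CPM. Mural-like cells, with 5 cells in experiment 2 only, had 144 CPM from 3 UMIs (interval 29.7 to 420), inside the range of astrocyte-like cells. In microglia-like cells it had 3 UMIs in 289 cells, and none were found in blood-like, endothelial-like and mature oligodendrocyte-like niche cells of the experiments with at least 5 such cells. It was seen in 88.9% of 36 stem cell-like, 43.0% of 237 astrocyte-like and 42.9% of 7 mural-like niche cells, against 1.04% of microglia-like cells. The median depth was 7429 transcripts in stem cell-like, 2159 in astrocyte-like and 3097 in microglia-like cells, and after thinning the shares of these classes were 30.6%, 22.2% and 0%, so stem cell-like and astrocyte-like cells lay closer together. Npdc1, which overlaps the end of Entpd2, had another order: 184 ± 94.0 CPM in stem cell-like, 155 ± 39.6 CPM in astrocyte-like and 216 ± 59.7 CPM in neuroblast and immature neuron-like cells, where Entpd2 had 0.904 ± 1.42 CPM.

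Adora1, the adenosine receptor, marked the oligodendrocyte lineage. It had 444, 370, 388 and 321 CPM in the precursor-like cells of experiments 1, 2, 3 and 5, a mean of 381 ± 50.8 CPM (SD, n = 4). Mature oligodendrocyte-like cells had 207, 219 and 125 CPM in experiments 1, 3 and 5, a mean of 184 ± 51.2 CPM (n = 3). Astrocyte-like cells followed with 73.7 ± 36.5 CPM (n = 5) and stem cell-like cells with 53.9 ± 16.8 CPM (n = 3), and microglia-like cells had 11.7 ± 9.95 CPM (n = 5). The Nestin-GFP library gave the same order, with 414 CPM (358 to 477) in precursor-like, 250 CPM (214 to 290) in mature oligodendrocyte-like and 107 CPM (79.5 to 141) in astrocyte-like cells. Adora1 was seen in 75.3% of precursor-like and 59.1% of mature oligodendrocyte-like niche cells, against 3.81% of microglia-like cells, and after thinning in 27.4%, 13.6% and 0.692%. The median depth of mature oligodendrocyte-like cells was 5337 transcripts, near that of precursor-like cells. Mybph, which overlaps the end of Adora1, had 0 CPM in both classes in the niche experiments.

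**Figure D2:**
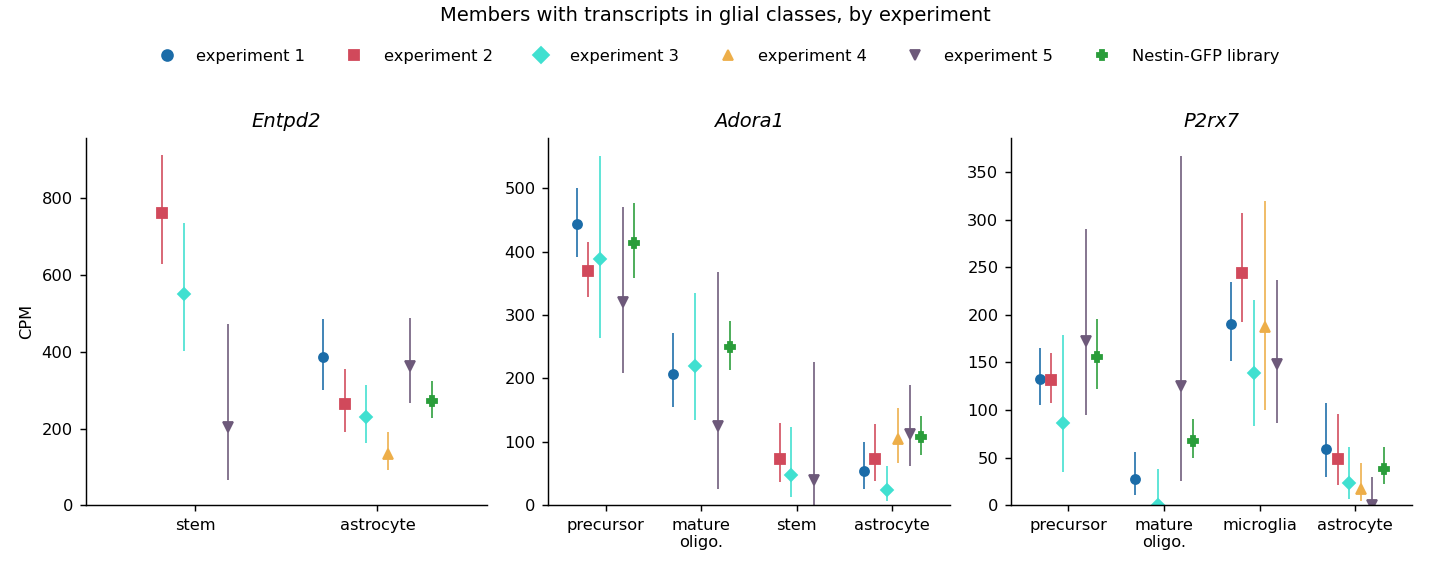
CPM of Entpd2, Adora1 and P2rx7 in the glial classes, with 1 symbol per niche experiment and a green cross for the Nestin-GFP library; bars are 95% exact Poisson intervals of the summed UMIs, and the vertical axes are linear. Entpd2 reached 760 CPM in the stem cell-like cells of experiment 2, Adora1 lay at 321 to 444 CPM in precursor-like cells, and P2rx7 overlapped between precursor-like and microglia-like cells.

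Microglia-like cells were set against astrocyte-like cells of the same experiments with edgeR's quasi-likelihood test, the experiment as block and Benjamini-Hochberg adjustment over all genes tested. Of 7 of the 9 genes that passed the filter on low counts, 6 were higher and 1 was lower in microglia-like cells. The filter keeps a gene with enough counts in 1 class alone. The 6 higher genes met it through microglia-like cells and would not have met it through astrocyte-like cells, and for Entpd2 the reverse held. Each of the 7 could thus pass only in the direction seen, so this tally is no result by itself. The fold changes and p-values of these genes carry the same limit. The background was high, since 60.7% of 3503 genes passed the threshold (29.1% higher and 31.6% lower). Gpr34 had the largest difference of the 7, 7.42 ± 0.44 on the log2 scale (SE; edgeR, adjusted p = 2.3e-16), with 1979 ± 573 CPM in microglia-like and 11.2 ± 6.19 CPM in astrocyte-like cells (SD, n = 5). P2ry12 was higher by 6.57 ± 0.40 (adjusted p = 2.3e-16) and P2ry13 by 5.48 ± 0.38 (adjusted p = 2.4e-15), on the log2 scale in edgeR. Entpd1 was higher by 4.46 ± 0.37 (edgeR, adjusted p = 1.9e-13) and P2rx7 by 2.56 ± 0.38 (edgeR, adjusted p = 2.5e-07). P2ry6 had 124 counts in microglia-like and 1 in astrocyte-like cells, a ratio of 99.0 with a counting interval of 17.4 to 3941. Entpd2 ran the other way, with 3 counts in microglia-like and 228 in astrocyte-like cells, a ratio of astrocyte-like over microglia-like CPM of 95.2 (interval 32.2 to 465; edgeR, adjusted p = 4.2e-14). All these directions held in 5 of 5 experiments.

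P2rx4 and Adora1 did not pass the filter. P2rx4 had 81 counts in microglia-like and 22 in astrocyte-like cells and was higher in 5 of 5 experiments, and Adora1 had 13 and 64 counts and was lower in 5 of 5. Of the other 44 purine pathway genes, 42 were listed and 4 were tested, and all 4 passed. Slc29a3, a nucleoside transporter of lysosomes, was higher in microglia-like cells by 3.68 ± 0.33 on the log2 scale (edgeR, adjusted p = 1.1e-12). Slc29a1, a nucleoside transporter of the cell surface, and Pnp, which breaks down inosine and guanosine, were higher by 2.04 ± 0.42 and 1.24 ± 0.27 (edgeR, adjusted p = 6.2e-05 and 0.00011). Adk, the kinase that clears adenosine, was lower by a log2 fold change of -4.46 ± 0.38, with 12.5 ± 5.38 CPM in microglia-like and 275 ± 84.5 CPM in astrocyte-like cells (SD, n = 5; edgeR, adjusted p = 3.8e-13). Of 24 immediate early and dissociation genes, 19 were tested and all 19 were higher in microglia-like cells, with 45787 ± 17375 CPM in sum in microglia-like and 3614 ± 2667 CPM in astrocyte-like cells. The part of this response in the receptor levels was not tested. Of 14 homeostatic microglia genes, none of them among the 9, all were tested and 11 were higher. The 15 astrocyte markers summed to 762 to 2534 CPM in microglia-like cells, with 10 to 14 of them above 0 in an experiment, against 30486 to 52475 CPM in astrocyte-like cells.

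Stem cell-like cells were set against astrocyte-like cells in experiments 2, 3 and 5. Entpd2 averaged 502 ± 281 CPM in stem cell-like and 284 ± 71.0 CPM in astrocyte-like cells of these experiments (SD, n = 3), and it was higher in 2 of 3, with the smallest stem class, 5 cells of experiment 5, below its astrocytes. Its log2 fold change was 0.88 ± 0.32 (SE), with an unadjusted p = 0.00598 and an adjusted p = 0.0721 in edgeR, so it missed the threshold. Neither of the 2 tested genes was called, while 7.41% of 3063 genes were (2.48%, or 76 genes, higher and 4.93%, or 151 genes, lower). DESeq2 called 18 genes higher and 67 lower. Without experiment 5, Entpd2 passed with 1.32 ± 0.37 (edgeR, adjusted p = 0.0117), and without experiments 2 or 3 it was at 0.41 ± 0.48 and 0.63 ± 0.38. It also passed at 2000 transcripts (1.11 ± 0.33), with 1 cell rich in Ppbp kept (1.12 ± 0.27) and with both rounds of clustering centred (1.40 ± 0.26), so the call turns on the experiments and cells that enter. Adora1 had 53.8 ± 16.8 CPM in stem cell-like and 70.1 ± 44.7 CPM in astrocyte-like cells, a log2 fold change of -0.09 ± 0.68 (edgeR, adjusted p = 0.974). Of the other purine pathway genes 3 were tested and none called (1 at an unadjusted p below 0.05). The immediate early and dissociation genes had 6 of 12 tested members higher in the stem class, and all 24 summed to 5353, 20101 and 1419 CPM in stem cell-like cells, against 3874, 4072 and 1545 CPM in astrocyte-like cells. Their part in the Entpd2 values was not tested.

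Oligodendrocyte precursor-like cells were set against mature oligodendrocyte-like cells in experiments 1, 3 and 5. Both tested genes of the 9 were higher in precursor-like cells, against a background of 49% of 2179 genes (27.8% higher and 21.2% lower). P2rx7 had 101 counts in precursor-like and 10 in mature oligodendrocyte-like cells. It passed the filter through the precursor-like sums of experiments 1 and 5 and the mature sum of experiment 5, which held few of these counts. P2rx7 had 133, 86.8 and 173 CPM in precursor-like cells, against 27.3, 0 and 125 CPM in mature oligodendrocyte-like cells, so that the groups overlapped, with a log2 difference of 2.11 ± 0.63 (SE; edgeR, adjusted p = 0.00254). Adora1 had 444, 388 and 321 CPM in precursor-like and 207, 219 and 125 CPM in mature oligodendrocyte-like cells, so that the groups did not overlap, with a log2 fold change of 1.01 ± 0.33 (edgeR, adjusted p = 0.00543). Both directions held in 3 of 3 experiments. After thinning, P2rx7 was seen in 10.4% of precursor-like and 3.03% of mature oligodendrocyte-like niche cells. In the Nestin-GFP library these shares lay closer together, at 10.4% and 9.68%. Entpd1 and Entpd2 did not pass the filter, with 15 and 13 counts in precursor-like and none in mature oligodendrocyte-like cells, at least 2.48-fold and 2.15-fold higher against 3 counts over the group. Both calls were lost with DESeq2 (adjusted p = 0.053 for P2rx7 and 0.0971 for Adora1) and without experiment 1 or 3, and in cells free of markers of a second class Adora1 had a log2 fold change of 0.00 ± 0.53.

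Of the other purine pathway genes 3 were tested between precursor-like and mature oligodendrocyte-like cells. Gpr17, a receptor of committed precursors, had 1254 ± 292 CPM in precursor-like and 3.89 ± 6.74 CPM in mature oligodendrocyte-like cells (SD, n = 3; log2 fold change 6.99 ± 0.54; edgeR, adjusted p = 8.9e-36). Enpp2, the enzyme that makes lysophosphatidic acid, was lower in precursor-like cells, with 832 ± 249 CPM against 4709 ± 764 CPM in mature oligodendrocyte-like cells (log2 fold change -2.58 ± 0.34; edgeR, adjusted p = 2.5e-13). Enpp4 was lower as well, with a log2 fold change of -2.92 ± 0.42 (edgeR, adjusted p = 2.5e-11). Of 9 tested immediate early and dissociation genes, 5 were higher in precursor-like cells.

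The old library was set against the 5 niche experiments in microglia-like cells, 54 cells against 9 to 133 per experiment. P2ry12 had 3797 CPM in old microglia-like cells, against 4243 ± 1613 CPM in the younger ones (SD, n = 5). P2ry13 had 1699 CPM in old cells and 1591 ± 630 CPM in younger cells, and Gpr34 had 1511 CPM and 1979 ± 573 CPM. For all 7 tested genes the old value lay inside the range of the niche experiments. The share of all genes inside their range was not computed, so this count does not show that the 7 were unchanged. P2rx7 was nearest to the edge, with 241 CPM in old cells and 139 to 244 CPM in the experiments, a log2 difference of 0.45 ± 0.46 (SE). Entpd1 had 400 CPM in old cells and 371 ± 79.3 CPM in younger cells, P2ry6 had 118 CPM and 133 ± 47.8 CPM, and P2rx4 had 65.3 CPM and 64.9 ± 20.7 CPM. With edgeR no gene of the 9 passed, like 0% of 5598 genes, each of the 7 with an adjusted p = 0.999 (211 genes of all had an unadjusted p below 0.05, and DESeq2 called 1 gene, Hmox1). The single old library was assumed to vary like the niche experiments. In simulated counts this design recovered 30.5% of 4-fold changes, so differences of that size or less could be missed. The simulated counts had a fixed spread, not estimated from these data, and no effect of experiment. Larger differences could therefore be missed as well.

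**Figure D3:**
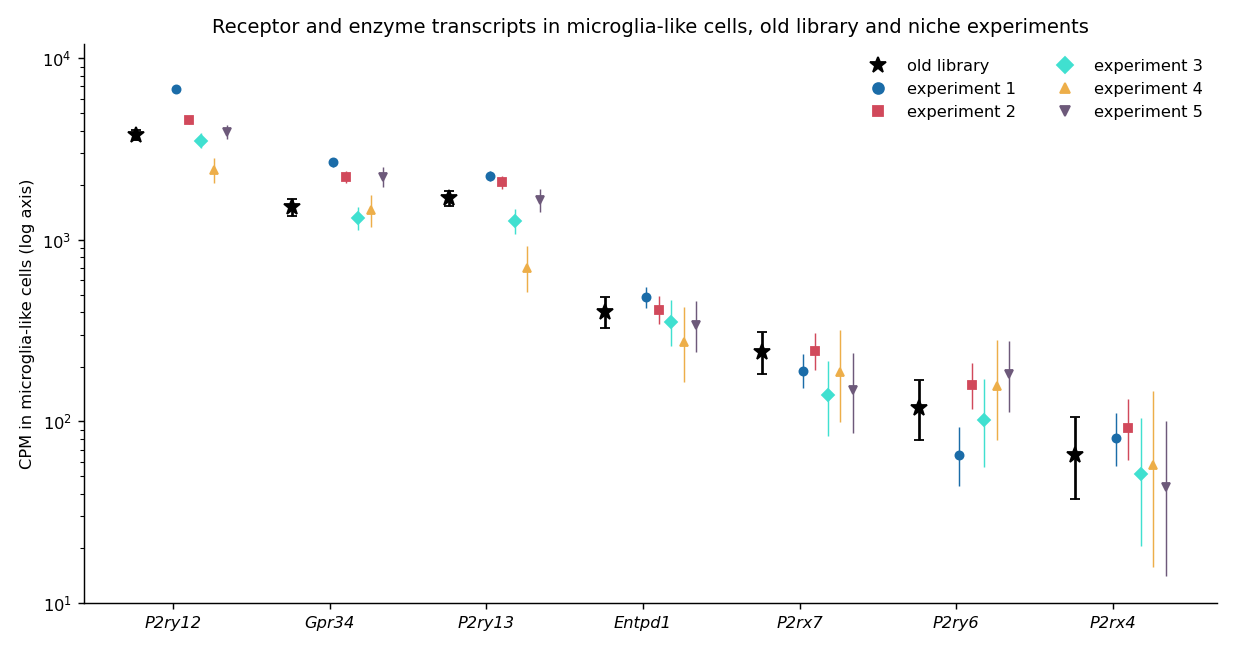
CPM of 7 genes in microglia-like cells (vertical log axis), with the old library as a black star and the 5 niche experiments as coloured symbols to its right; bars are 95% exact Poisson intervals. The old value of each gene lies inside the range of the experiments, for P2ry12 at 3797 CPM within 2412 to 6758 CPM. A value inside this range does not show an unchanged level.

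The old precursor-like cells, 21 in number, had 405 CPM of Adora1 (317 to 511) and 240 CPM of P2rx7 (173 to 324). The Adora1 value lay inside the range of the niche experiments, 321 to 444 CPM, and the P2rx7 value above theirs, 86.8 to 173 CPM. This difference was not tested, and the old library was read with another UMI pool than most niche libraries.

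Microglia differ in the chemokines Ccl3 and Ccl4, and the receptors were compared between cells above and cells at or below the median of their sum, within experiments 1, 2, 3 and 5. P2ry12 had 6170, 4271, 3617 and 3435 CPM in cells above the median, against 7361, 4863, 3433 and 4320 CPM in cells at or below it, so it was lower in 3 of 4 experiments. P2rx7 had 203, 298, 151 and 159 CPM above the median, against 177, 198, 127 and 139 CPM at or below it, and was higher in 4 of 4. The log2 fold changes were -0.18 ± 0.11 for P2ry12 and 0.34 ± 0.25 for P2rx7 (SE; edgeR, adjusted p = 0.982 each), and none of the 6 tested genes of the 9 was called. Of 1993 genes, 0.201% passed, namely Ccl3 and Ccl4 themselves, Ccl12 and Il1a, and 84 had an unadjusted p below 0.05 (none of the 6). P2ry13, Gpr34 and Entpd1 differed by -0.06 ± 0.12, -0.01 ± 0.14 and -0.07 ± 0.19, and P2ry6 by 0.20 ± 0.40 on the log2 scale.

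**Figure D4:**
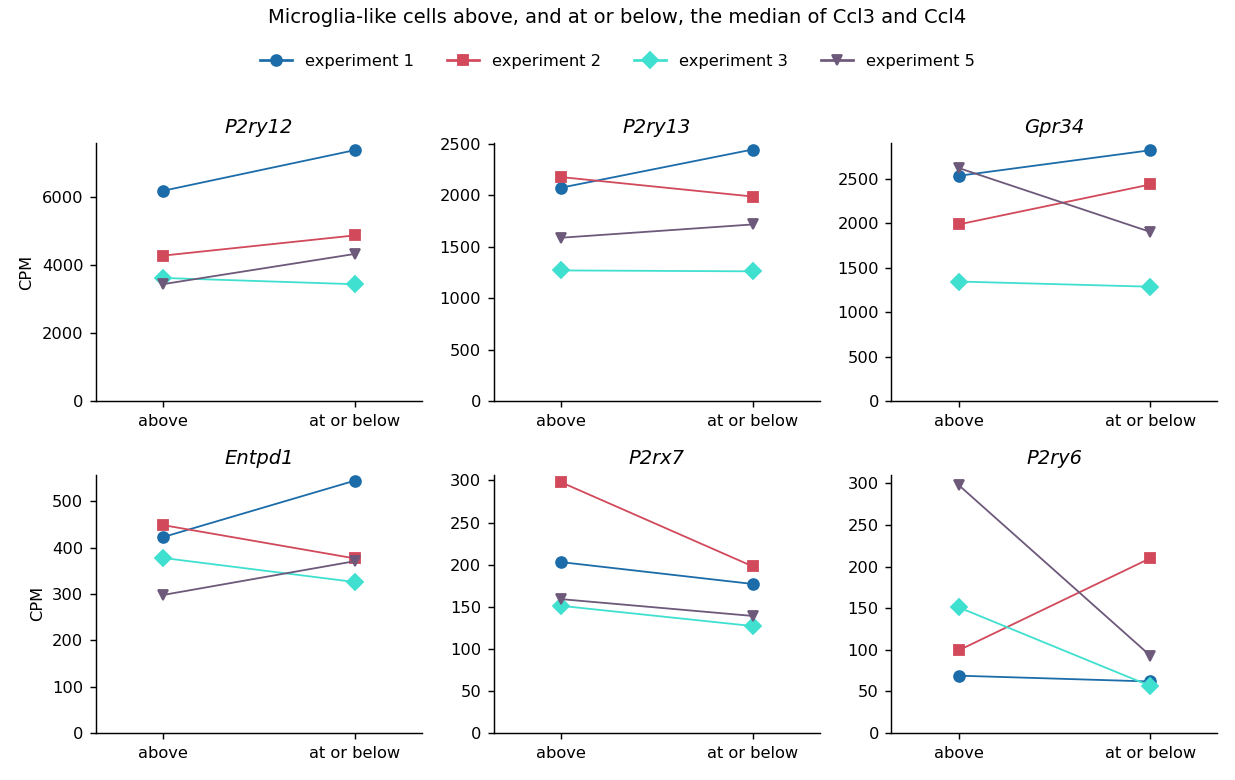
CPM of 6 genes in microglia-like cells above the median of Ccl3 and Ccl4 (left) and at or below it (right), with 1 line per experiment and linear axes from 0. Lines of P2rx7 run down to the right in all 4 experiments and those of P2ry12 up in 3 of 4, and neither difference passed the test.

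The 14 homeostatic microglia genes summed to 57710, 66534, 55368 and 59029 CPM above the Ccl median, against 64777, 71282, 55570 and 73140 CPM at or below it. The immediate early and dissociation genes summed to 64776, 39609, 49244 and 68164 CPM above it, against 54973, 39727, 45233 and 58205 CPM at or below it. Both sums thus moved with the division in most experiments, and their part in the P2ry12 and P2rx7 values was not tested.

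Low levels of the microglial receptors were also found outside microglia-like cells, and there P2ry13 made up a larger share of them when the classes were pooled. In neural, glial and vessel classes, P2ry13 made up 25.3%, 62.1%, 49.1%, 33.3% and 63.0% of the UMIs of P2ry12, P2ry13 and Gpr34 in experiments 1 to 5, against 19.8%, 23.7%, 21%, 15.8% and 21.3% in microglia-like cells. The share was higher outside microglia-like cells in all 5, and the 95% exact binomial intervals did not overlap in experiments 2, 3 and 5, nor in the old library with 60.7% (47.3 to 72.9) outside and 24.3% (22.3 to 26.4) inside. In experiments 1 and 4 the intervals overlapped, and P2ry12 had more UMIs than P2ry13 there, 51 against 20 and 18 against 12. Single classes differed: in experiment 1 P2ry13 made up 12% of these UMIs in precursor-like cells (3 of 25), below the 19.8% of microglia-like cells, and in experiment 4 it had 0 of 5 in proliferating progenitor-like cells. The sum of these receptors outside microglia-like cells was 24.4 to 101 CPM in the niche experiments and 170 CPM in the old library, against 6.69 CPM in the Nestin-GFP library, which held no microglia-like cell. The 15 microglia markers behaved alike, with 408 to 1189 CPM in the astrocyte-like cells of the niche and 137 CPM in those of the Nestin-GFP library. In experiment 3, the 84 such cells from the 6 libraries that also held microglia-like cells had 53 UMIs of the 3 genes, or 123 CPM. The 23 cells from the 6 libraries without microglia-like cells had none in 158922 UMIs, which allows up to 18.9 CPM. Libraries of experiment 3 ranged from 4 to 30 wells with at least 1000 transcripts. Plate and cell yield can therefore not be told apart from this division. The pattern was chosen after its values were seen, and its cause was not tested.

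**Figure D5:**
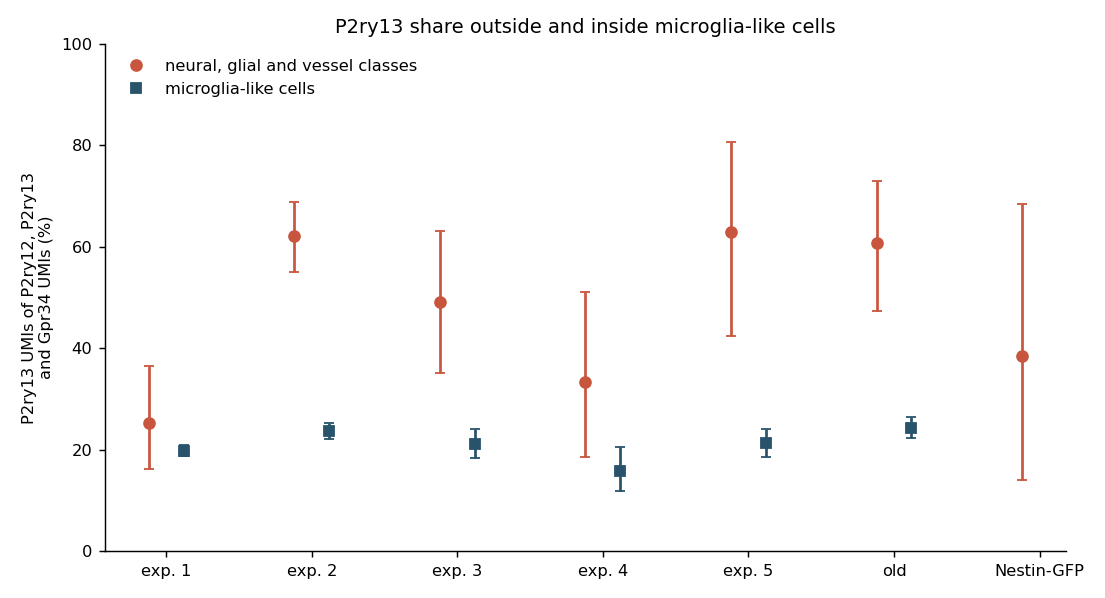
Share of P2ry13 among the UMIs of P2ry12, P2ry13 and Gpr34 (vertical axis, percent) in neural, glial and vessel classes (circles) and in microglia-like cells (squares) of each experiment and library, with 95% exact binomial intervals. Outside microglia-like cells the share reached 63.0% in experiment 5, and inside it stayed between 15.8% and 24.3%; the Nestin-GFP library held no microglia-like cell.

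The genes whose levels ran most like those of each receptor were sought over 36 sums of 11 classes among 9600 genes, by Pearson's r of log2(CPM + 10). The points share libraries and depth, and the values are descriptions. P2ry12 was nearest to Fcrls (r = 0.95), C1qa and Mlxipl (both 0.94), Gpr34 to Fgd2, C1qa and Gna15 (all 0.94), and P2ry6 to Trem2, C3ar1 (both 0.93) and Btk (0.92). P2ry13 was nearest to C1qa (0.88), and Entpd1 to Slco2b1 (0.85). P2rx7, shared by microglia-like and precursor-like cells, was nearest to Amz1 (0.84), Arhgap39 (0.78) and Nfatc2 (0.77), and P2rx4 had no gene above 0.73 (Elovl1). Entpd2 ran with Id4 (0.91), Prodh and Aldoc (both 0.90), and Adora1 with Pcdh9 (0.90), Plekhb1 (0.88) and Nap1l5 (0.87).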

How the data were processed

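The submitters' processing notes name BWA 0.6.2-r126 and the build mm10; the annotation used and the counter were not given in the sources used here. Each deposited value is an estimated count of a gene's transcripts in 1 well, corrected by the authors for UMI saturation. Inverting that correction gave whole UMIs (within 0.05) for 99.33% to 100% of values per library. The pool of UMIs this needed was 256, but 4096 in 1 library of experiment 2, both of experiment 5, the old library and the Nestin-GFP library, although the labels state UMIs of 4 bases. Per the labels, the reads of experiment 2 come from a resequencing. Experiments list different genes and share 12002, so clusters used shared genes and each test the genes listed in all its sums. Spike-ins and mitochondrial genes were left out. Well numbers recur in every library, so cells were told apart by library.

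Wells with at least 1000 transcripts were kept (1738), less 13 cells rich in haemoglobin, Ttr or Ppbp. They were clustered with scanpy 1.11.5 (2000 variable genes, 30 components, 15 neighbours, Leiden at resolution 1, in 2 rounds for astrocyte, stem and progenitor clusters) without purine genes and named from 15 marker sets. No doublet caller was run, and 721 cells with at least 2 transcripts each of 3 or more markers of an unrelated class were dropped in an alternative. Counts were summed per class and experiment with at least 5 cells, rounded and tested with edgeR 4.0.16 (TMM, filterByExpr, quasi-likelihood F test, two-sided, adjusted p under 0.05), the experiment as block except for the old library. Classes were paired by experiment and not by library. In experiment 3, 6 libraries held cells of other classes but no microglia-like cell, so differences between libraries remain within a pair. Each SE given for edgeR was derived as the absolute log2 fold change divided by the square root of the F statistic. DESeq2 1.42.0 was an alternative. In another, "divided UMIs", the UMIs of each cell were split at random into 2 sets, with clusters from the first and tests on the second. The procedure was tested on simulated data. Intervals and limits from 3 counts cover counting error only.

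The 9 genes and all lists were chosen with earlier results of these data known. All 9 are named, with at most 4 other pathway genes called in each direction, and the 3 genes nearest to each. The class assignment was revised 5 times after the data, including levels of these genes, had been seen, but before any gene was tested; it was not changed afterwards.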

Additional observations from a re-analysis of the deposited data

How the results depend on the processing

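Of 351 log2 fold changes of the 9 genes under alternatives, 304 kept their direction and side of the threshold, 12 lost the call, 5 gained it and 30, none of them called, changed sign. These outcomes are not all separate checks. Requiring at least 10 cells per class and experiment dropped only experiment 5 from the stem cell-like and precursor-like comparisons. It dropped only experiment 4, with 9 microglia-like cells, from the microglia-like against astrocyte-like and the old comparisons. These fits thus repeat those with that experiment left out. The Ccl comparison had no sum under 18 cells, so nothing could change there. Of 142 class levels, 138 moved by less than 1 SD; Adora1 in precursor-like cells was 281 CPM without mixed cells, 311 at 2000 transcripts and 305 with divided UMIs, and P2rx4 in microglia-like cells 43.8 with divided UMIs. At this depth 7, 2, 2, 7 and 6 of the 9 genes passed the filter on low counts in the comparisons, in the order of the report, and the others were not tested.

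Between microglia-like and astrocyte-like cells the genes called numbered 4018 without the filter, 1244 without mixed cells and 1123 with divided UMIs. For stem cell-like against astrocyte-like cells they numbered 85 with DESeq2, 27 with no replicate block, 84 with divided UMIs and 86 to 186 with an experiment left out. Of the 9 genes 1, Entpd2, was called at 10 cells or more, at 2000 transcripts (1.11 ± 0.33), with the Ppbp-rich cell (1.12 ± 0.27) and with both rounds centred (1.40 ± 0.26), and 0 to 1 with an experiment left out. Leaving out mixed cells left 1 experiment and was not run there. Between precursor-like and mature oligodendrocyte-like cells the genes called numbered 2003 without the filter, 612 without mixed cells, 524 with divided UMIs and 708 to 1576 with an experiment left out. Of the 9 genes, 0 were called with DESeq2 or without mixed cells, 1 without the filter, with no replicate block, at 10 cells, at 2000 transcripts or with divided UMIs, and 0 to 1 with an experiment left out. Between old and younger microglia-like cells 1 gene was called with DESeq2, 9 without the filter, 2 with the same UMI pool and 0 to 11 with an experiment left out. Above against at or below the Ccl median 2 were called with DESeq2, 7 without the filter and 1 with no replicate block. Except where the alternative tests fewer genes or samples, the cause was not tested. With no replicate block, no other call changed.

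The changed signs were as follows, on the log2 scale. In stem cell-like cells Adora1 was 0.27 at 10 cells or more, and -0.56 to 0.27 with an experiment left out. In old cells P2rx4 was 0.03 with DESeq2, 0.01 without the filter and -0.09 to 0.19 with an experiment left out. P2ry13 was -0.05 at 10 cells, -0.07 with the same UMI pool and -0.05 to 0.31 with an experiment left out, and P2ry12 was -0.27 to 0.14. P2ry6 was 0.02 at 2000 transcripts, 0.06 with both rounds centred and -0.26 to 0.10 with an experiment left out. Above against at or below the Ccl median Gpr34 was 0.00 with DESeq2, 0.01 with no replicate block, 0.11 without mixed cells, 0.04 with divided UMIs, 0.17 with both rounds centred and 0.08 to 0.12 with an experiment left out. P2ry13 was 0.01 without mixed cells, 0.17 with both rounds centred and -0.11 to 0.04 with an experiment left out. Entpd1 was 0.10 without mixed cells, 0.11 at 2000 transcripts and -0.17 to 0.12 with an experiment left out. P2ry6 was -0.13 at 2000 transcripts and -0.16 to 0.34 with an experiment left out, and P2ry12 was 0.12 with both rounds centred. The Ppbp-rich cell and the centring were chosen after seeing the data.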
